A study of Sus scrofa with 11 samples.

Results

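The nuclear genes that encode subunits of the respiratory chain and of ATP synthase were examined in pig liver after hepatic irradiation. Members were the genes whose symbols begin with NDUFA, NDUFB, NDUFC, NDUFS or NDUFV and a number, UQCR, COX4 to COX8 or ATP5, together with SDHA, SDHB, SDHC and SDHD, and which reached 1 FPKM, a fragment count scaled to transcript length and library total, in at least 2 libraries. Of 63 matching symbols, 62 passed, out of 12505 genes in the table and 11644 genes tested. By complex, 28 belonged to complex I, 4 to complex II, 6 to complex III, 13 to complex IV and 11 to complex V. NDUFA4 and NDUFA4L2 were counted with complex IV, of which NDUFA4 is now known to be a subunit. The symbol that did not pass was COX4I2, which reached 1 FPKM in 1 library. The member nearest to that limit was NDUFA7, which reached it in 10 of 11 libraries, while every other member reached it in all 11.

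The study asked how pig liver responds to irradiation, and its title names a veno-occlusive liver disease with ferroptosis. Bulk liver RNA was sequenced in 2 control libraries labelled day 0, and in 3 libraries each at 20, 30 and 40 Gy labelled day 35, so irradiation and the 35 days cannot be told apart in any comparison with control. All samples are labelled wild type and hepatocyte, although the RNA came from liver. Nothing in the labels says whether the libraries of a group came from separate animals, and p-values therefore measure the spread between these libraries, which may be technical.

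The respiratory chain sits in the inner mitochondrial membrane. Complexes I and II pass electrons from NADH and succinate to ubiquinone, complex III passes them on to cytochrome c, and complex IV passes them to oxygen. The proton gradient that complexes I, III and IV build drives complex V, the ATP synthase. Hepatocytes are rich in mitochondria and use this ATP for gluconeogenesis, urea synthesis and biosynthesis. Most subunits are encoded in the nucleus and imported, and a small core set is encoded in mitochondrial DNA.

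Several facts about the libraries touch the results. 30Gy-1 and 30Gy-2 were nearly identical, with a standard deviation of 0.137 in their log2 ratio over 4806 genes, as were 20Gy-3 and 30Gy-3 (0.13), against 0.305 to 1.008 in the other 53 pairs. The second pair crosses dose labels, and whether libraries were duplicated or exchanged cannot be told from the files. Every value at 20 and 30 Gy rests on those labels. The near-identical pair at 30 Gy was counted as 1 sample in each mean ± SD. The depth of the libraries is unknown. Their summed FPKM ran from 520839 in 40Gy-1 to 949840 in 40Gy-3, and the 13 mitochondrially encoded subunits took 11.8% of it in 40Gy-1 and up to 25.5% in 20Gy-1. All 12 hepatocyte markers were in the table, and their summed FPKM was 46550 to 74720 in control livers, 49140 to 56940 at 20 Gy, 54090 to 62030 at 30 Gy and 28630 to 34970 at 40 Gy. In bulk tissue, fewer cells of a type and less RNA per cell cannot be told apart.

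Across all irradiated livers, no subunit gene passed the test. With limma and Benjamini-Hochberg adjustment over all genes tested, 0 of 62 members were called at an adjusted p under 0.05 in irradiated against control livers, where 4.71% of all genes were called. At an unadjusted p under 0.05, 6 members were lower and 0 higher, against 20.1% of all genes in either direction. The lowest adjusted p of any member was 0.131. The median log2 difference of the members was -0.19, beside 0.01 over all genes, and 49 members had a negative and 13 a positive difference. The members' median was -0.04 on a TPM scale, which sets every library to the same total, and turned to 0.05 when the mitochondrially encoded genes were also left out of that total. Relative to the median of all genes it was -0.20 as deposited, -0.18 and -0.17 on those scales and -0.07 after quantile normalization. The shift of all genes on the TPM scale was 0.14, and 0.22 without the mitochondrially encoded genes in the total.

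In all 9 irradiated libraries, 3 members lay below both controls, namely NDUFA2, NDUFB2 and SDHB. That is 4.84% of the members, where 7.86% of all genes lay below, and 0 members lay above. NDUFB2, a small subunit of the membrane arm of complex I, averaged 22.7 ± 1.99 FPKM in control livers (n = 2), 15.7 ± 1.75 at 20 Gy (n = 3), 16.6 ± 3.38 at 30 Gy (n = 2) and 17.4 ± 2.19 at 40 Gy (SD, n = 3).

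By dose, the 20 Gy and 30 Gy livers gave no called member. At 20 Gy, 0 members were called against control with limma and Benjamini-Hochberg adjustment, where 4.23% of all genes were. The median difference was -0.30 on the log2 scale, beside -0.03 over all genes. It turned to 0.08 on the TPM scale without mitochondrially encoded genes, where the median of all genes was 0.30. Relative to all genes the members' median was thus -0.275 as deposited and -0.226 on that scale. At an unadjusted p under 0.05, 10 members were lower and 0 higher at 20 Gy, against 22.0% of all genes in either direction. At 30 Gy, 0 members were called in limma, where 3.03% of all genes were. There the median was 0.00, with 31 members on each side, and the 1 member with an unadjusted p under 0.05 was NDUFS8, which was higher, against 16.5% of all genes.

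Libraries of 1 dose differed widely. In 30Gy-1, 6 members lay below both controls and 33 above, and in 30Gy-2 10 lay below and 34 above. In 30Gy-3, 47 lay below and 6 above. Its near-identical partner 20Gy-3 had 47 below and 4 above, 20Gy-1 had 51 below and 4 above, and 20Gy-2 had 28 below and 17 above. At 40 Gy the counts below and above both controls were 53 and 0 in 40Gy-1, 43 and 13 in 40Gy-2, and 24 and 17 in 40Gy-3. The medians of the members ran from -0.59 to -0.09 within 20 Gy and from -0.32 to 0.18 within 30 Gy, on the log2 scale relative to control. Over all genes the medians of the irradiated libraries lay between -0.056 in 20Gy-3 and 0.074 in 40Gy-2. The shares of all genes below and above both controls in single libraries are not given here, so the counts of members lack that reference. These counts depend on the scale. On the TPM scale 40Gy-1 had 20 members below both controls and 29 above, 40Gy-2 had 47 and 12, and 40Gy-3 had 46 and 6. For 20Gy-2 the balance turned to 13 below and 37 above on that scale, while 20Gy-1, 20Gy-3 and 30Gy-3 kept 35 to 40 below. Without the mitochondrially encoded genes in the total, 20Gy-3 had 26 on each side and 30Gy-3 had 20 below and 26 above.

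**Figure D1:**
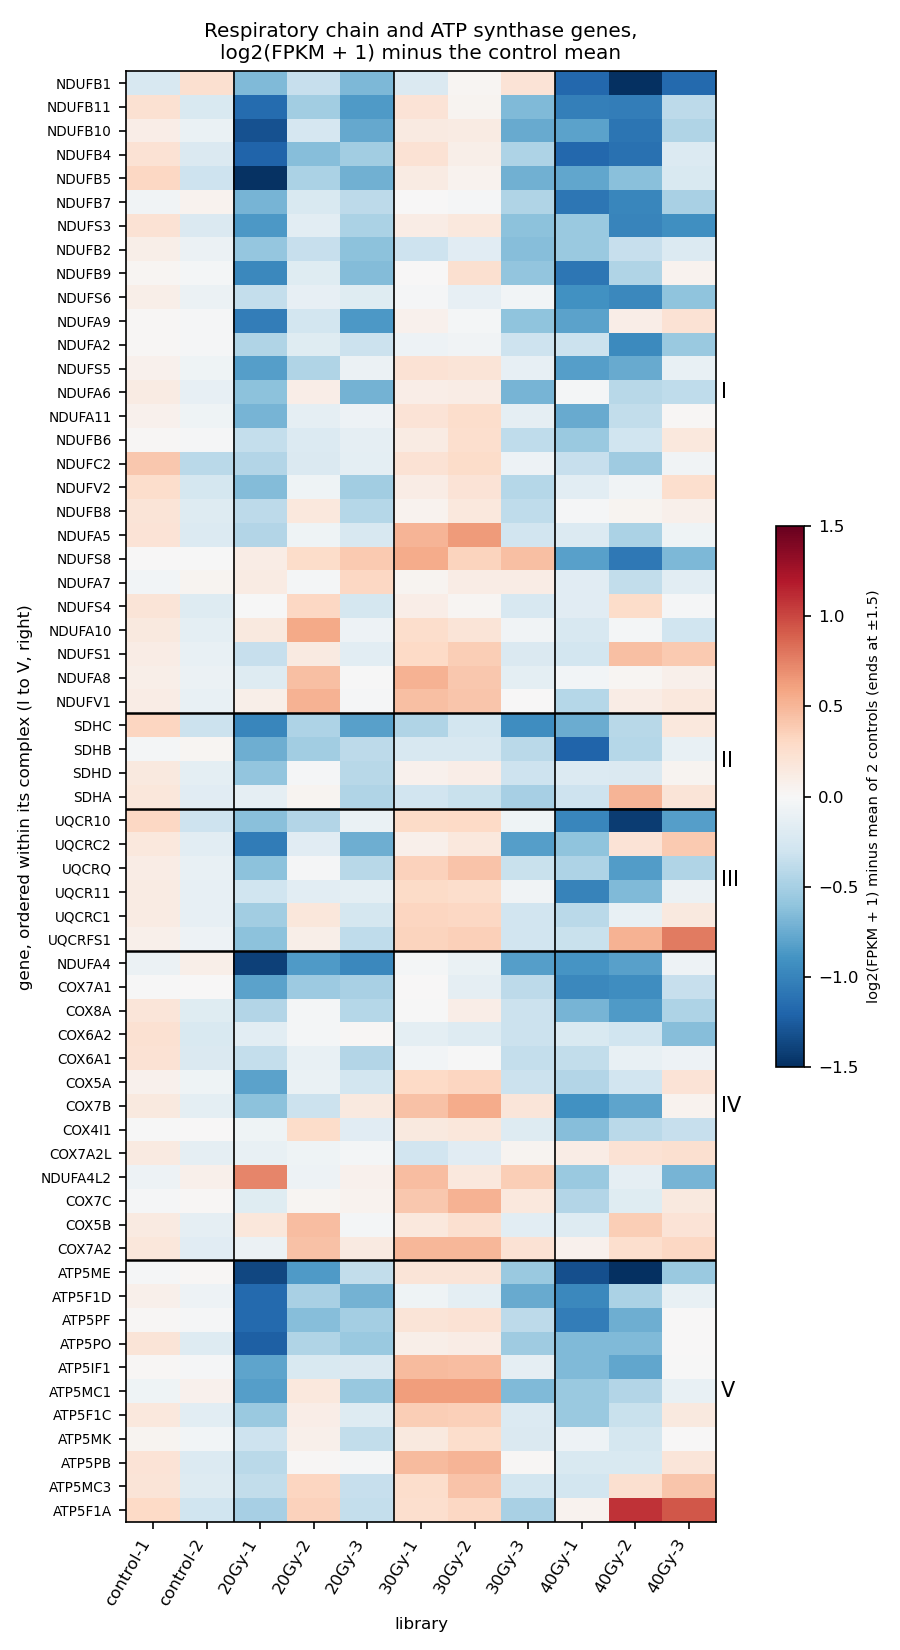
Each row is 1 of 61 of the subunit genes, ordered within complexes I to V, and each column is 1 library; colour gives log2(FPKM + 1) minus the mean of the 2 controls and ends at ±1.5. 20Gy-1, 20Gy-3, 30Gy-3, 40Gy-1 and 40Gy-2 are mostly blue (lower), while 30Gy-1 and 30Gy-2 are mostly red (higher); on the TPM scale 40Gy-1 turned to 20 members below both controls and 29 above, and without the mitochondrially encoded genes in the total 30Gy-3 turned to 20 and 26.

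At 40 Gy 4 subunit genes fell against control and none rose. They were NDUFB1, NDUFS6 and NDUFS8 of complex I and UQCR10 of complex III, which are 6.45% of the members. Of all genes 7.39% were called in limma, 4.41% falling and 2.98% rising. Against the 20 and 30 Gy livers 5 members fell and 0 rose, namely these 4 and NDUFA4L2. That is 8.06% of the members, where 21.5% of all genes were called, 9.71% falling and 11.8% rising. All 4 calls against control were lost on the TPM scale and on the TPM scale without mitochondrially encoded genes, and 1 was left after quantile normalization. The median log2 difference of the members was -0.35 against control, beside 0.06 over all genes, and -0.20 against 20 and 30 Gy, beside 0.07. The signs of both medians were negative on those scales and after quantile normalization, where the first ran from -0.26 to -0.18 and the second from -0.34 to -0.19.

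Without regard to the test, 22 members lay below both controls in all 3 libraries at 40 Gy and 0 lay above. That is 35.5% of the members, where 17.9% of all genes lay below and 19.5% above. On the TPM scale 19 members lay below and 5 above, against 8.89% of all genes below and 22.4% above. Without 40Gy-1, 23 members lay below and 12 above as deposited, against 30.3% of all genes below and 35.7% above. On the TPM scale without 40Gy-1, 42 lay below and 6 above, against 36.4% and 25.8% of all genes. With the mitochondrially encoded genes also left out of that total, 35 lay below and 9 above, against 31.0% and 29.9%. As deposited, 8 members lay below all 6 libraries at 20 and 30 Gy, or 12.9%, where 10.8% of all genes did. The 1 member above them was COX7A2L, where 13% of all genes lay above.

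**Figure D2:**
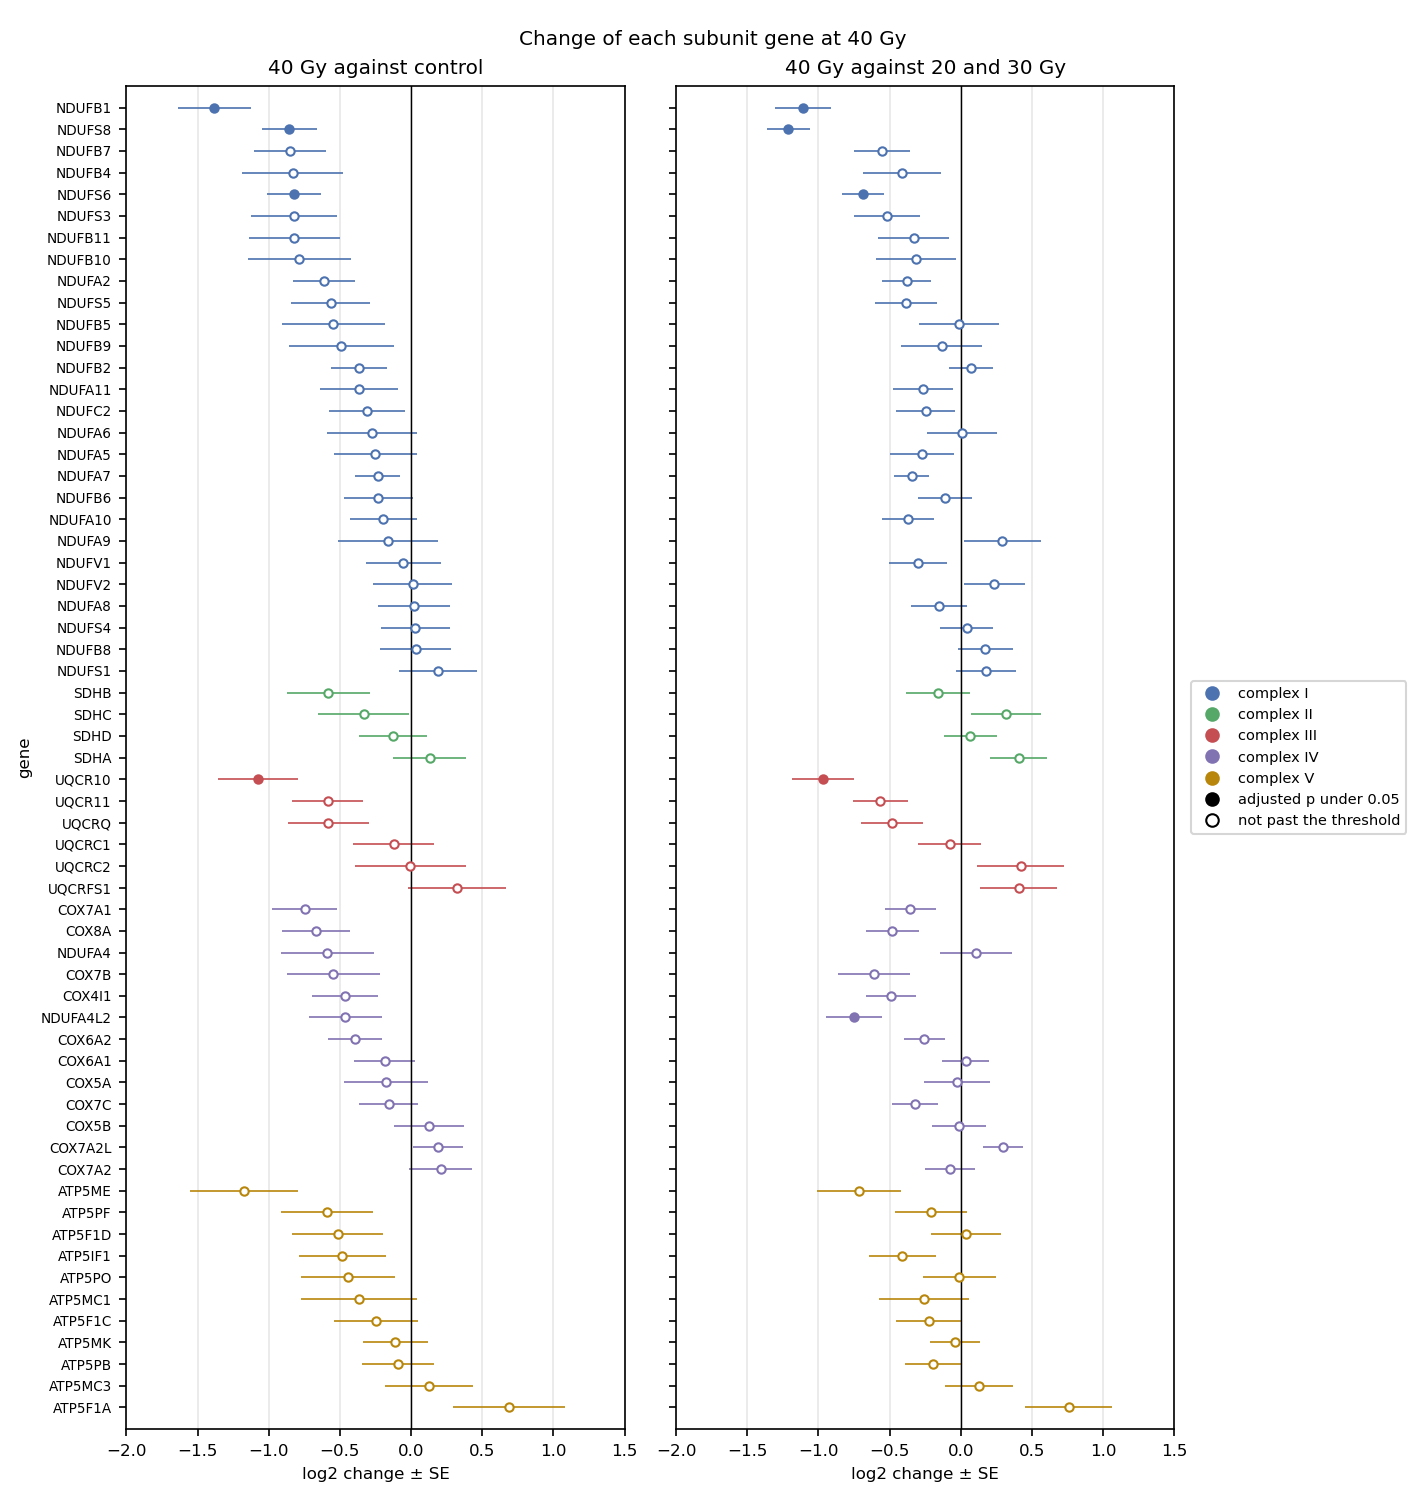
Points give the log2 change ± SE of 61 of the subunit genes in the limma fit, at 40 Gy against control (left) and at 40 Gy against 20 and 30 Gy (right), coloured by complex and filled at an adjusted p under 0.05. The 4 filled points at left and 5 at right all lie below 0, and ATP5F1A lies farthest to the right in both.

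Complex I, which oxidises NADH, held 3 of the 4 genes that fell against control. In its 6 measured NADH-oxidising subunits the median log2 difference at 40 Gy against control was -0.02, in its 7 ubiquinone-module subunits -0.25 and in its 15 membrane-arm subunits -0.49. The membrane arm had 13 negative differences and 2 positive ones, the ubiquinone module 6 and 1, and the NADH-oxidising subunits 3 and 3. Each module held 1 of the called genes, or 6.67%, 14.3% and 16.7% of it in that order. Differences of the NADH-oxidising subunits ran from -0.82 to 0.19. On the TPM scale the medians of the NADH-oxidising, ubiquinone-module and membrane-arm subunits were 0.08, -0.18 and -0.40, beside 0.14 over all genes. These modules were assigned from textbook knowledge after the values had been seen.

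NDUFS8 carries a pair of iron-sulfur clusters on the electron path to ubiquinone, and is annotated on chromosome 2 at 4863295 to 4867392 in Sscrofa11.1. At 40 Gy it had 60.1, 49.8 and 66.1 FPKM, against 107 and 106 FPKM in control livers. At 20 Gy it had 115, 129 and 139.8 FPKM, and at 30 Gy 157, 134.5 and 146 FPKM. All 3 libraries at 40 Gy were lower than every other library, and all libraries at 20 and 30 Gy were above both controls. NDUFS8 fell by 1.21 on the log2 scale against 20 and 30 Gy (SE 0.15, limma, Benjamini-Hochberg adjusted p = 7.28e-04). Over all alternatives that adjusted p ran from 4.08e-04 to 0.0555. Against control it fell by 0.86 (SE 0.19, limma adjusted p = 0.0274, 0.0114 to 0.184 over the alternatives). Among libraries left out 1 at a time, that call was lost without either control, 40Gy-2, 30Gy-1 or 30Gy-2. It was also lost on the TPM scale with and without mitochondrially encoded genes (0.157 and 0.126), after quantile normalization (0.0616), with the compared groups fitted alone (0.184), after averaging 30Gy-1 with 30Gy-2 (0.0518), after omitting the pair that crosses doses (0.0618) and after doing both (0.146).

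NDUFS6 is a zinc-binding subunit needed for the NADH-oxidising module, on chromosome 16 at 78993909 to 79000001. The 40 Gy libraries had 61.6, 59.1 and 76.1 FPKM, against 123 and 109.5 FPKM in control livers. Those at 20 Gy had 90.6, 107 and 103 FPKM, and those at 30 Gy 114, 107 and 113 FPKM. The 40 Gy libraries lay below all others, with 20Gy-1 the nearest above them. It fell by 0.82 against control (SE 0.19, limma adjusted p = 0.0284, 0.015 to 0.197 over the alternatives) and by 0.69 against 20 and 30 Gy (SE 0.15, limma adjusted p = 0.0103, 0.00663 to 0.183). The first call was lost without the same libraries and under the same other settings as that of NDUFS8, and the second without 40Gy-2 (limma adjusted p = 0.0619).

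NDUFB1, a small subunit of the membrane arm, showed the largest fall of any member against control. It lies on chromosome 7 at 113652772 to 113659937 and overlaps CPSF2, so reads of the 2 genes may be mixed. Its level at 40 Gy was 11.4, 6.98 and 11.5 FPKM, against 22.7 and 32.1 FPKM in control livers. It was 16.7, 21.1 and 16.5 FPKM at 20 Gy, and at 30 Gy 23.1, 27.5 and 31.3 FPKM. The 40 Gy libraries were the lowest 3, while those at 20 Gy lay below both controls. The near-identical libraries 20Gy-3 and 30Gy-3 differed more in this gene than in any other member, by 0.88 on the log2 scale. It fell by 1.38 against control (SE 0.26, limma adjusted p = 0.0121, 0.00488 to 0.137 over the alternatives), a call lost without control-2 (0.0934), on the TPM scale with and without mitochondrially encoded genes (0.0818 and 0.0656), with the compared groups fitted alone (0.137), and after averaging 30Gy-1 with 30Gy-2 and omitting the pair that crosses doses (0.0769). Against 20 and 30 Gy it fell by 1.11 (SE 0.20, limma adjusted p = 0.00476, 0.00243 to 0.0976).

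Other members of complex I did not pass the test. NDUFV1, the subunit that binds NADH and flavin, had the highest difference of complex I across all irradiated livers, 0.15 on the log2 scale (limma adjusted p = 0.762). It averaged 82.7 ± 8.77 FPKM in control livers (n = 2), 96.1 ± 20.3 at 20 Gy (n = 3), 97.2 ± 20.7 at 30 Gy (n = 2) and 80.7 ± 17.2 at 40 Gy (SD, n = 3). NDUFB4, the most abundant member of complex I at a mean of 201 FPKM over all libraries, differed by -0.83 at 40 Gy against control (SE 0.36, limma adjusted p = 0.181), as large a difference as that of NDUFS6 with a wider error. NDUFC2, a membrane-arm subunit, differed by -0.31 (limma adjusted p = 0.506).

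NDUFA7, a subunit of the ubiquinone module and the member with the lowest mean level, had 1.28, 0.993 and 1.30 FPKM at 40 Gy, against 1.5 and 1.65 FPKM in control livers. It overlaps RPS28, a ribosomal protein gene that fell by 1.56 on the log2 scale at 40 Gy against control (SE 0.30, limma adjusted p = 0.014). What part RPS28 has in the level of NDUFA7 was not tested.

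Complex II, or succinate dehydrogenase, also belongs to the TCA cycle. None of its 4 subunits passed the limma test in any of the 5 comparisons, although all 4 had a negative difference in irradiated against control livers. Their median was -0.33 as deposited and -0.08 on the TPM scale without mitochondrially encoded genes, where that of all genes was 0.22. SDHC at 20 Gy against control was the 1 case with an unadjusted p under 0.05. SDHA, the flavoprotein that oxidises succinate, had 44.7, 79.1 and 63.4 FPKM at 40 Gy, against 62.4 and 49.2 FPKM in control livers. SDHB, the iron-sulfur subunit, had 108, 186 and 230.5 FPKM at 40 Gy, against 245 and 255 FPKM in control livers. The groups overlapped for SDHA and not for SDHB, of which 40Gy-1 had the lowest value. The log2 difference at 40 Gy against control was 0.13 for SDHA and -0.58 for SDHB (limma adjusted p = 0.796 and 0.25).

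The membrane anchors of complex II bind ubiquinone. SDHC had the lowest difference of complex II in irradiated against control livers, -0.55 on the log2 scale (limma adjusted p = 0.296). It averaged 34.0 ± 10.9 FPKM in control livers (n = 2), 19.5 ± 3.81 at 20 Gy (n = 3), 21.2 ± 6.20 at 30 Gy (n = 2) and 27.0 ± 9.05 at 40 Gy (SD, n = 3). The 2 controls differed from each other, at 41.8 and 26.3 FPKM. SDHD differed by -0.17 (limma adjusted p = 0.685).

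Complex III gave different medians for its small and its large subunits at 40 Gy. The 3 small subunits UQCR10, UQCR11 and UQCRQ had a median log2 difference of -0.59 against control and -0.57 against 20 and 30 Gy. The core proteins UQCRC1 and UQCRC2 and the Rieske protein UQCRFS1 had medians of 0.00 and 0.41. The small subunits stayed negative on the TPM scales and after quantile normalization, and the large ones then had 0.09 to 0.17 against control. The median of all genes was 0.14 and 0.19 on the TPM scales and 0.02 after quantile normalization. As deposited, UQCRC1, UQCRC2 and UQCRFS1 lay below the control mean in 40Gy-1, at -0.40, -0.61 and -0.34 on the log2 scale. All of them lay above it in 40Gy-3, and in 40Gy-2 UQCRC1 alone lay below. Of these 6 genes only UQCR10 passed the test, and the difference between the 2 sets was not tested.

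UQCR10, a small membrane subunit at the cytochrome c1 side of complex III, lies on chromosome 14 at 46783340 to 46786140. Levels at 40 Gy were 88.6, 64.5 and 98.1 FPKM, against 218 and 140.5 FPKM in control livers. The 20 Gy libraries had 113, 129 and 164 FPKM, and those at 30 Gy 213, 216 and 167 FPKM. The 40 Gy libraries were the lowest 3, and the controls lay far apart. It fell by 1.08 against control (SE 0.28, limma adjusted p = 0.045), a call that lay near the threshold, with 0.0245 to 0.274 over the alternatives, and was lost without any 1 library other than 40Gy-1 and under the same other settings as that of NDUFS8. Against 20 and 30 Gy it fell by 0.97 (SE 0.22, limma adjusted p = 0.0127, 0.00935 to 0.144 over the alternatives), which was lost without 40Gy-2 (0.0754).

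UQCRFS1, which carries the iron-sulfur cluster that takes electrons from ubiquinol, had 13.9, 26.1 and 31.4 FPKM at 40 Gy, against 18.9 and 16.9 FPKM in control livers. 40Gy-1 lay below both controls and the other 2 above. Its log2 difference against control was 0.32 (limma adjusted p = 0.605).

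Complex IV, cytochrome c oxidase, has subunits with tissue-specific isoforms, and the liver forms led here. COX4I1, a regulatory subunit that binds ATP, was the most abundant of all members at a mean of 818 FPKM. At 40 Gy it had 559, 656 and 684 FPKM, against 869 and 873 FPKM in control livers. COX4I1 was at 834, 1057 and 771 FPKM at 20 Gy, and at 30 Gy 960.4, 978 and 761 FPKM. The 40 Gy libraries were the lowest 3, but the test did not pass, at -0.47 against control and -0.49 against 20 and 30 Gy (limma adjusted p = 0.244 and 0.0733).

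COX4I2, the isoform of lung and of low oxygen, was listed at 0 in 3 libraries and reached 1.25 FPKM in 20Gy-1, its highest value, or 0.15% of the COX4I1 level there. COX7A1, known as the heart and muscle isoform, had 18.1, 18.5 and 28.4 FPKM at 40 Gy, against 36.1 and 36.4 FPKM in control livers. As a share of the level of COX7A2, the isoform of liver, it was 22.7% and 29.2% in the control libraries and 11% to 18.2% in the irradiated ones. All irradiated libraries thus had a lower share than either control. The log2 difference of COX7A1 at 40 Gy against control was -0.75 (limma adjusted p = 0.0778) and that of COX7A2 was 0.21 (limma adjusted p = 0.605). COX7A2L, a related protein that takes part in joining complexes III and IV, had 57.0, 61.0 and 62.4 FPKM at 40 Gy, against 57.8 and 47.8 FPKM in control livers. DES was the 1 gene of the muscle list that was analysed here, at 3.77 to 7.73 FPKM at 40 Gy against 5.78 to 8.95 FPKM in control livers.

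COX6A2, another muscle isoform, had 7.42% to 16.9% of the level of COX6A1 and no order by dose. At 40 Gy against control COX6A2 differed by -0.39 and COX6A1 by -0.19 (limma adjusted p = 0.232 and 0.629). COX8A, the smallest subunit, had 299, 270.3 and 352 FPKM at 40 Gy, against 552 and 428 FPKM in control livers. The groups did not overlap, with a log2 difference of -0.67 (limma adjusted p = 0.12).

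NDUFA4 is a subunit that complex IV needs for full activity. It had 121, 128 and 214 FPKM at 40 Gy, against 212 and 239.7 FPKM in control livers. Its values were 84.6, 124 and 115 FPKM at 20 Gy, and at 30 Gy 219.9, 210.1 and 126 FPKM. The 20 Gy libraries were all below both controls, and 30Gy-3 resembled them, unlike 30Gy-1 and 30Gy-2. NDUFA4 had the lowest difference of complex IV across all irradiated livers, -0.66 (SE 0.28, limma adjusted p = 0.222). At 20 Gy it differed by -1.07 (limma adjusted p = 0.0934), and without 40Gy-1 it was called there (adjusted p = 0.048). RefSeq lists a pseudogene of NDUFA4, so its reads may be split.

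NDUFA4L2, a paralog of NDUFA4 known as a target of hypoxia-inducible factor, lies on chromosome 5 at 22540482 to 22548418. At 40 Gy it had 1.72, 2.65 and 1.47 FPKM, against 5.64, 2.80 and 3.18 FPKM at 20 Gy and 4.54, 3.48 and 4.18 FPKM at 30 Gy. Control livers had 2.80 and 3.23 FPKM. The 40 Gy libraries were the lowest 3, with 40Gy-2 close to the lowest of the others. It fell by 0.75 against 20 and 30 Gy (SE 0.20, limma adjusted p = 0.0254, 0.0183 to 0.186 over the alternatives). That call was lost without 40Gy-3 (0.108) or 30Gy-1 (0.0548). It was also lost on the TPM scale (0.05), after omitting the pair that crosses doses (0.0695) and after averaging 30Gy-1 with 30Gy-2 as well (0.186). The levels are low enough that the added 1 FPKM compresses the difference.

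**Figure D3:**
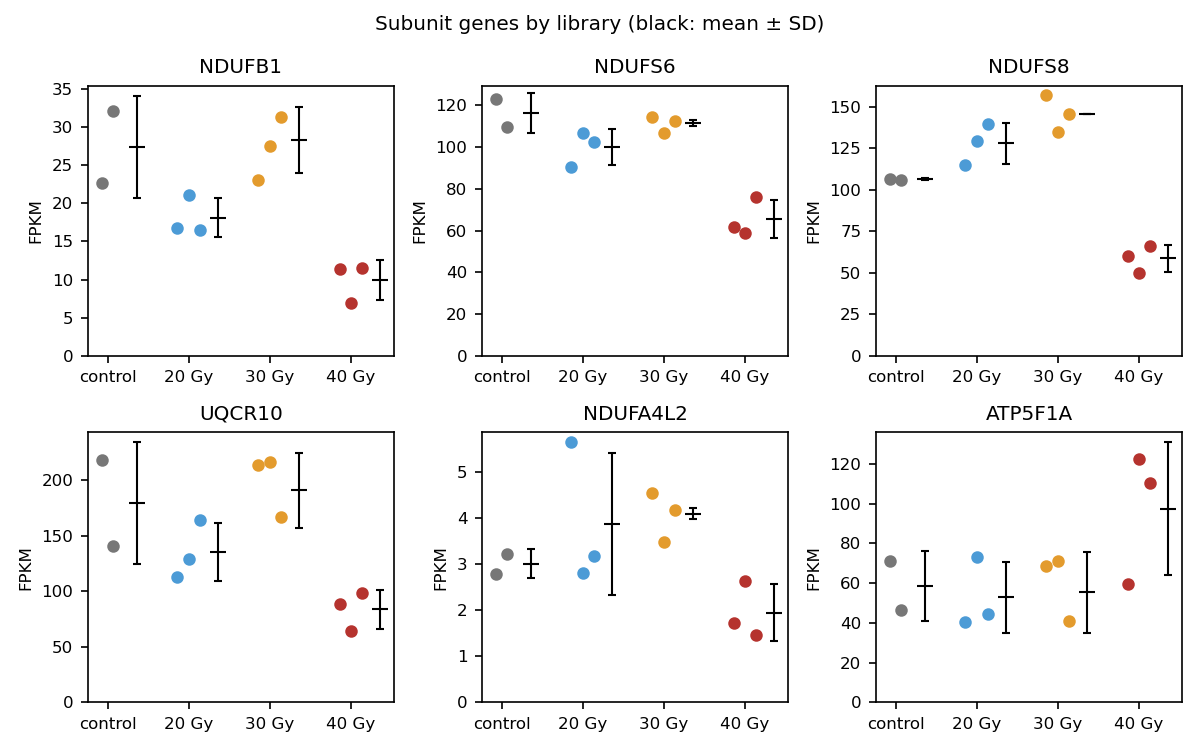
Dots give the FPKM of each library in control livers and at 20, 30 and 40 Gy for the 5 subunit genes that fell and for ATP5F1A, which was added after its values were seen; black marks give the mean ± SD (n = 2, 3, 2 and 3, the near-identical pair at 30 Gy counted once). NDUFB1, NDUFS6, NDUFS8, UQCR10 and NDUFA4L2 are lowest in the 3 libraries at 40 Gy, and ATP5F1A is highest in 40Gy-2 and 40Gy-3.

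Complex V makes ATP in its F1 head, which is fed by a proton-driven ring in the membrane and held by a stator stalk. None of its 11 members passed the limma test in the 5 comparisons, and at an unadjusted p under 0.05 ATP5ME, ATP5F1D, ATP5PF, ATP5PO and ATP5F1A did in at least 1 of them. ATP5ME, the small membrane subunit e, had the lowest difference of all members in irradiated against control livers, -0.70 (SE 0.33, limma adjusted p = 0.263). It had 10.1, 7.81 and 17.9 FPKM at 40 Gy, against 26.4 and 26.9 FPKM in control livers. ATP5ME had 9.73, 14.4 and 20.5 FPKM at 20 Gy, and at 30 Gy 30.7, 30.5 and 17.8 FPKM. All libraries at 20 and 40 Gy were below both controls, and only the near-identical pair at 30 Gy lay above. At 40 Gy against control its difference was -1.17 (SE 0.38, limma adjusted p = 0.09).

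ATP5F1A, the alpha subunit of the F1 head, had the highest difference of complex V. It had 59.4, 123 and 110.4 FPKM at 40 Gy, against 71.1 and 46.3 FPKM in control livers. Livers at 20 Gy had 40.4, 73.4 and 44.6 FPKM, and those at 30 Gy 68.5, 71.4 and 40.9 FPKM. 40Gy-2 and 40Gy-3 were above every other library, while 40Gy-1 lay between the controls. Against 20 and 30 Gy the difference was 0.76 (SE 0.30, limma adjusted p = 0.0999).

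Without 40Gy-1, 4 members rose at 40 Gy against 20 and 30 Gy with limma and Benjamini-Hochberg adjustment, where 21.7% of all genes rose and 18.0% fell. Among them were ATP5F1A by 1.08 (SE 0.29, adjusted p = 0.0174), SDHA by 0.62 (SE 0.18, adjusted p = 0.0215) and UQCRFS1 by 0.74 (SE 0.23, adjusted p = 0.0311). In that setting 7 members fell, NDUFA2 and NDUFA7 being added to the 5, and the members called were 17.7% of all members, beside 39.8% of all genes. NDUFA2, of the NADH-oxidising module, also fell against control there, by 0.76 (SE 0.20, limma adjusted p = 0.0226).

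ATP5IF1, the inhibitor that stops complex V from running backwards and splitting ATP, was the most abundant member of complex V at a mean of 269 FPKM. In the 40 Gy libraries it had 184, 169 and 289 FPKM, against 295 and 288 FPKM in control livers. Its level was 169, 249 and 250.3 FPKM at 20 Gy, and at 30 Gy 404, 401 and 265 FPKM. The groups overlapped, and the difference at 40 Gy against control was -0.48 (limma adjusted p = 0.362). ATP5MC1 and ATP5MC3, which encode the same mature ring subunit behind different import sequences, differed by -0.36 and 0.13 (limma adjusted p = 0.621 and 0.836). ATP5MC3 had 16.3% to 33.9% of the ATP5MC1 level.

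The mitochondrially encoded subunits had a median of the opposite sign as deposited. Of 13 measured, 0 were called in irradiated against control livers in limma, where 4.71% of all genes were. At an unadjusted p under 0.05 there were 0, against 20.1% of all genes. Their median log2 difference was 0.24, beside -0.19 for the nuclear members. On the TPM scale without mitochondrially encoded genes the nuclear median turned to 0.05, where that of all genes was 0.22. Summed FPKM of the 62 nuclear members was 7443 and 6494 in control libraries, 4841, 6680 and 5598 at 20 Gy, 7837, 7928 and 5710.0 at 30 Gy, and 4594, 5126 and 6392 at 40 Gy. The share of all FPKM taken by the mitochondrially encoded set was 14.3% and 15.6% in control libraries, 25.5%, 19.4% and 23.4% at 20 Gy, 17.6%, 16.8% and 23.5% at 30 Gy, and 11.8%, 22.7% and 19.7% at 40 Gy. The share was above both controls in every irradiated library but 40Gy-1. Nuclear members share the FPKM total with this set, and its part in their lower FPKM was not tested beyond the rescaled values above.

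PPARGC1A, the coactivator that drives mitochondrial biogenesis, had 5.43 and 8.31 FPKM in control libraries, 15.9, 3.59 and 18.4 at 20 Gy, 3.61, 3.84 and 19.3 at 30 Gy, and 1.95, 8.21 and 7.45 at 40 Gy. The 3 libraries with the highest level, 20Gy-1, 20Gy-3 and 30Gy-3, were also those in which the mitochondrially encoded share was highest and 47 to 51 members lay below both controls as deposited. In contrast, 40Gy-1 had the most members below both controls, 53, with the lowest PPARGC1A and the lowest mitochondrially encoded share. 40Gy-2 had 43 members below and a mitochondrially encoded share of 22.7%, with PPARGC1A between the controls. Without the mitochondrially encoded genes in the total, 20Gy-3 and 30Gy-3, which are near-identical, had 26 and 20 members below. Within 20 Gy and within 30 Gy the libraries fell on both sides of the controls. Its log2 difference in irradiated against control livers was 0.07 (limma adjusted p = 0.967).

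**Figure D4:**
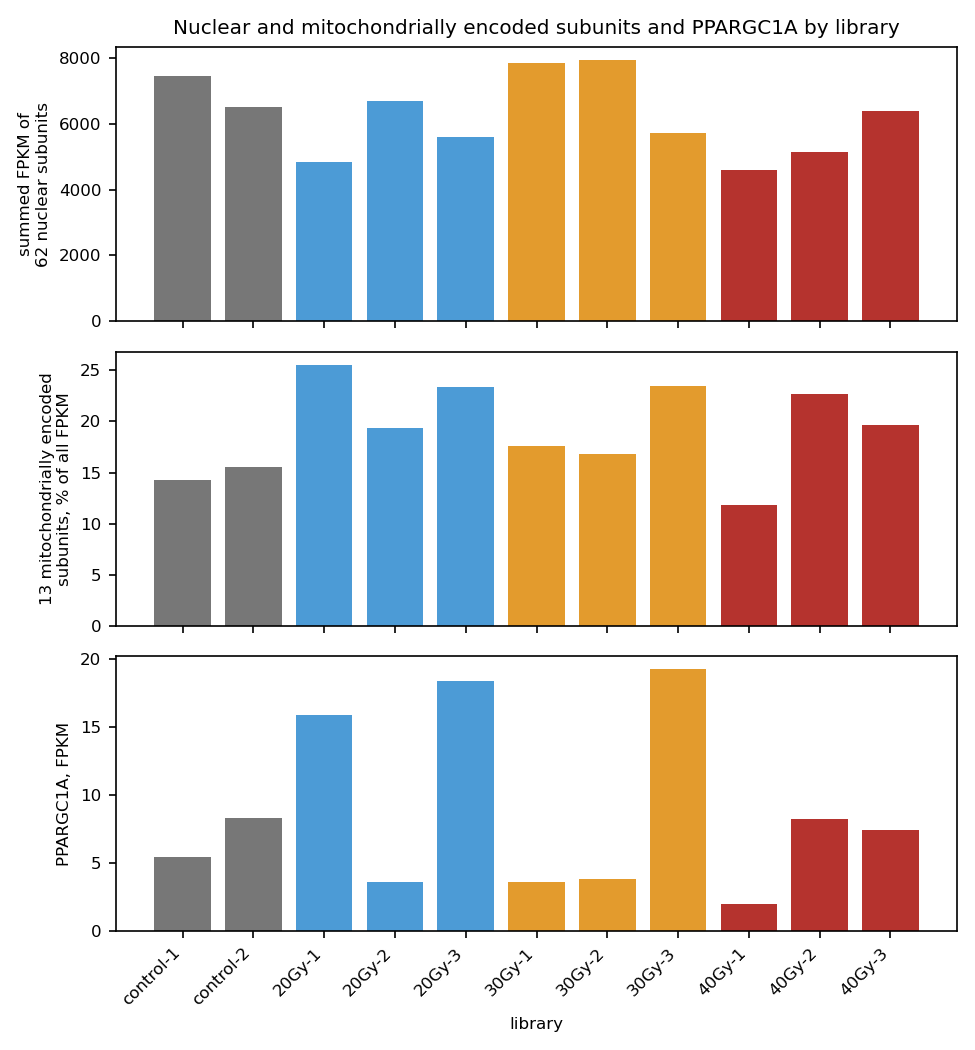
Bars give, for each library, the summed FPKM of 62 nuclear subunit genes (top), the percentage of all FPKM from 13 mitochondrially encoded subunits (middle) and the FPKM of PPARGC1A (bottom), coloured by group. 20Gy-1, 20Gy-3 and 30Gy-3 stand high in the middle and bottom panels and below both controls in the top one. All libraries at 40 Gy also stand below both controls in the top panel. Of these, 40Gy-2 stands high in the middle panel, with PPARGC1A between the controls.

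Of the 28 regulators of mitochondrial biogenesis measured, 0 were called in irradiated against control livers in limma, where 4.71% of all genes were. At an unadjusted p under 0.05, 3 were lower and 0 higher, against 20.1% of all genes in either direction. Against 20 and 30 Gy, 5 rose and 0 fell at 40 Gy, namely SSBP1, YY1, PPRC1, TFB2M and TFAM, or 17.9% of the list. Of all genes 21.5% were called there in either direction and 11.8% rose. TFAM, which packages mitochondrial DNA and starts its transcription, had 9.24, 13.8 and 14.02 FPKM at 40 Gy, against 7.60, 8.50 and 8.38 FPKM at 20 Gy and 7.58, 8.08 and 8.90 FPKM at 30 Gy. All 3 libraries at 40 Gy were higher than these, and it rose by 0.52 on the log2 scale (SE 0.15, limma adjusted p = 0.0369). Control livers had 10.55 and 8.81 FPKM, with 40Gy-1 between them. At 40 Gy against control TFAM differed by 0.31 (limma adjusted p = 0.371), and 0 of the 28 regulators were called there. The factors NRF1 and ESRRA, which bind promoters of subunit genes, differed by 0.13 and -0.55 in irradiated against control livers (limma adjusted p = 0.767 and 0.245). PPARA, the regulator of fatty acid oxidation, differed by -0.86 (limma adjusted p = 0.108). Of 19 markers of mitochondrial mass, such as porins and import receptors, 0 were called in irradiated against control livers. At an unadjusted p under 0.05, 1 was higher and 1 lower, against 20.1% of all genes. The import receptor TOMM70 rose at 40 Gy against 20 and 30 Gy by 0.77 (SE 0.19, limma adjusted p = 0.018). It was the 1 call of this list there, or 5.26%, where 21.5% of all genes were called and 11.8% rose. Against control TOMM70 differed by 0.43 at 40 Gy (limma adjusted p = 0.301), and 40Gy-1 lay between the controls.

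Genes that feed electrons into the chain included some that changed in all irradiated livers. Of 15 carriers beside the complexes, ETFDH alone changed in irradiated against control livers, or 6.67%, beside 4.71% of all genes called. This enzyme passes electrons from fatty acid oxidation to ubiquinone. It had 45.3, 42.3 and 40.8 FPKM at 40 Gy and 39.1 to 48.1 FPKM at the lower doses, against 91.9 and 95.9 FPKM in control livers. Every irradiated library lay at about the same level below both controls, and it fell by 1.09 on the log2 scale (SE 0.14, limma adjusted p = 0.003). At 40 Gy against control 3 carriers fell, ETFDH, ETFB and COQ5, which makes ubiquinone, or 20% of the list, beside 7.39% of all genes called. ETFB, the partner that hands electrons to ETFDH, was at -1.41 (SE 0.26, limma adjusted p = 0.0119).

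Of 19 genes of mitochondrial fatty acid oxidation, ETFDH and ETFB included, 8 fell and 0 rose in irradiated against control livers, or 42.1%, beside 4.71% of all genes called. Their median was -0.70 as deposited and -0.46 on the TPM scale without mitochondrially encoded genes. The 3 with the smallest p were ACADVL, which opens the oxidation of very long chains, ETFDH, and ACAA2, the thiolase, with falls of 2.08, 1.09 and 4.47 on the log2 scale (SE 0.23, 0.14 and 0.63, limma adjusted p = 0.00137, 0.003 and 0.00409). Of 19 TCA cycle genes, 1 fell, or 5.26%, namely PC, which makes oxaloacetate from pyruvate. It fell by 1.57 (SE 0.19, limma adjusted p = 0.00249). IDH3A, OGDH and DLAT rose at 40 Gy against 20 and 30 Gy, or 15.8% of the list. There 21.5% of all genes were called in either direction and 11.8% rose. At 40 Gy against control IDH3A, OGDH and DLAT were not called (limma adjusted p = 0.22, 0.532 and 0.145).

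Among 42 assembly factors, 1 fell and 1 rose in irradiated against control livers, or 4.76%, beside 4.71% of all genes called. HIGD1A, a hypoxia-induced factor that binds complex IV, had 44.6, 42.8 and 47.6 FPKM at 40 Gy and 15.8 to 33.7 FPKM at the lower doses, against 65.8 and 96.2 FPKM in control livers. It fell by 1.46 (SE 0.28, limma adjusted p = 0.0191). COA7, an assembly factor of complex IV, rose by 1.23 (SE 0.29, limma adjusted p = 0.0421). Over the alternatives these adjusted p ran up to 0.217 for HIGD1A and 0.324 for COA7, and up to 0.0844 for ETFDH and 0.239 for TFAM in the comparisons above. Of 60 calls of list genes followed over the alternatives, 58 were lost under at least 1, the exceptions being ACADVL in all irradiated livers and at 20 Gy against control. LYRM2 and HIGD2A, linked to the assembly of complexes I and IV, fell at 40 Gy against control by 1.24 and 0.97 (SE 0.24 and 0.25, limma adjusted p = 0.0154 and 0.0457), as COA7 rose. These calls were 7.14% of the list, beside 7.39% of all genes.

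Ribosomal protein genes had negative medians in irradiated against control livers as well. Of 64 mitochondrial ribosomal proteins 2 fell in that comparison, MRPL52 and MRPS26, or 3.12%, with a median of -0.24. Of 50 cytosolic ribosomal proteins 2 fell, RPS28 among them, or 4%, with a median of -0.55. Of all genes 4.71% were called in either direction and 2.84% fell. At an unadjusted p under 0.05, 10 mitochondrial and 27 cytosolic ribosomal proteins were lower and 0 higher, against 20.1% of all genes in either direction. Without the mitochondrially encoded genes in a TPM total the 2 medians were -0.01 and -0.31, where that of all genes was 0.22. At 40 Gy against 20 and 30 Gy they were 0.04 and -0.13 as deposited, beside -0.20 for the subunit genes.

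Some marker genes of cell types were also called at 40 Gy against control, where 7.39% of all genes were called. Of 12 hepatocyte markers 3 fell and 0 rose in limma. Called or not, 9 had a negative and 3 a positive log2 difference, with a median of -0.49 and a highest of 1.75. Of 4 neutrophil markers 2 rose, and their summed FPKM was 8.42 to 18.2 at 40 Gy against 1.65 to 4.74 in control livers. Of 8 macrophage markers 1 rose, MARCO, with the list's sum at 497 to 1184 FPKM against 673 to 893.5 FPKM. MARCO was also higher at 20 and 30 Gy against control, by 2.31 and 2.76 (limma adjusted p = 0.116 and 0.09), and its controls had 11.7 and 0.77 FPKM. Of 3 erythroid markers 1 fell, with the sum at 11.7 to 54.5 FPKM against 105.9 to 826 FPKM. Only 4 of 7 listed neutrophil and 3 of 6 listed erythroid markers were measured. None of the measured markers of these lists was under 0.1 FPKM in every library. Also tested were 7 of 8 listed endothelial, 6 of 8 T and NK cell, 8 of 8 stellate and fibroblast and 3 of 6 bile duct markers. Of these, 0 were called at 40 Gy against control in limma. At an unadjusted p under 0.05, 1 endothelial marker was lower and 1 stellate and 1 bile duct marker were higher, against 24.7% of all genes in either direction. LYVE1 of the endothelial list fell in irradiated against control livers (-0.91, SE 0.20, limma adjusted p = 0.0316, up to 0.241 over the alternatives). The part of these cell types in the levels of NDUFB1, NDUFS6, NDUFS8 and UQCR10 was not tested.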

How the data were processed

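Total RNA of pig liver was extracted with Trizol, made into libraries with a TruSeq kit and read as paired ends of 150 bp, per the labels' protocols. The authors deposited 1 table of FPKM for 12505 genes in 11 libraries. The submitters' processing notes name HISAT2, Cufflinks, HTSeq, Sscrofa11.1 and mm10, each with no role. For strand, annotation and depth the sources used here say nothing, so counting intervals cannot be given.

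Symbols came from a gene name table (10561 of 12505 IDs matched). Coordinates came from the RefSeq Sscrofa11.1 gene table, by symbol, for 40 of 62 members. Of these 40, 10 overlap another gene, and their values are uncertain.

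Values were taken as log2(FPKM + 1), which understates fold changes of low genes, for all genes that met the minimum of 1 FPKM in 2 libraries. A model of 4 group means covered the 11 libraries in limma 3.58.1 (R 4.3.3; eBayes with trend, 7 residual degrees of freedom, two-sided), adjusted by Benjamini-Hochberg over 11644 genes and called at an adjusted p under 0.05. It was tested on simulated data. Near-identical libraries stayed separate in the fit. Comparisons with control share its 2 libraries.

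Members and lists were chosen with earlier results of these data known. Named were every called member, the highest and lowest irradiated difference and the highest level of each complex, the SDH subunits, ATP5IF1, isoform groups, up to 3 called genes a list and 5 biogenesis regulators; ribosomal genes, NDUFA2, NDUFB2, NDUFA7 and genes called at 40 Gy alone were named after their values were seen. The lists were mitochondrially encoded subunits, carriers, assembly factors, biogenesis regulators, mass markers, TCA cycle, fatty acid oxidation, ribosomal proteins, and markers of hepatocytes, endothelium, macrophages, neutrophils, T and NK cells, stellate cells, bile duct, erythroid cells and muscle. Alternatives were other scales, pseudocounts and filters, the groups compared alone, a replicate block, and libraries left out or averaged. The TPM scale without mitochondrially encoded genes, the modules of complexes I and III, and the recounts and list medians on other scales were chosen after seeing the data. Of the subunit genes, 1 is counted but not reported here by name or drawn gene by gene.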

Additional observations from a re-analysis of the deposited data

How the results depend on the processing

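Under 24 alternatives no called member changed direction, but values of members that were not called did: 31 of 62 had both signs in irradiated against control livers, 32 at 20 Gy, 39 at 30 Gy and 18 at 40 Gy against control, and 19 at 40 Gy against 20 and 30 Gy. Against control at 40 Gy the count of 4 called members fell to 0 on the TPM scale, to 0 on the TPM scale without mitochondrially encoded genes, to 1 after quantile normalization, to 0 with the compared groups fitted alone, to 1 with the near-identical 30 Gy pair averaged, to 1 without 20Gy-3 and 30Gy-3, and to 0 with both of these steps. Leaving out 1 library at a time gave 0 to 5, with 0 without control-2. Against 20 and 30 Gy the count of 5 became 0 with both steps on near-identical libraries, and 11 on the TPM scale without mitochondrially encoded genes. Leaving out 1 library gave 3 to 11, with 3 without 40Gy-2 and 11 without 40Gy-1. At 20 Gy it gave 0 to 1. Leaving libraries out or fitting fewer groups lowers the residual degrees of freedom, and the cause of the other changes was not tested. With the replicate block the count against control was 3, UQCR10 being lost. Same-numbered libraries of different groups correlated between -0.62 and 0.65 (median 0.03) in their deviations, so the numbers were not taken to pair them. With 2 controls, and an unknown depth, small differences are not detectable.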
